A study of Mus musculus with 28 samples.

Results

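The genes described here are 43 genes of the interferon response and of antigen presentation, taken by symbol from a table of 37620 mouse genes. They fall into 8 roles: 3 sensors of foreign RNA or DNA, 5 transcription factors or coactivators, 11 antiviral effectors, 6 genes of the ISG15, ubiquitin and ADP-ribosyl systems, 3 guanylate-binding proteins, 3 IFITM proteins, 6 chemokine or other induced genes and 6 genes of antigen processing and class I presentation. Expression was measured by RNA-seq of poly(A) RNA in 28 libraries, 2 for each of 14 groups. Cells labelled WT (with H3_3 in their library names) or K36M, a histone H3 carrying methionine in place of the lysine that H3K36 methyltransferases modify, were compared at 7 stages. The d0 samples were mouse embryonic fibroblasts (MEFs) in DMEM with serum. Samples of d2, d4, d6 and d8 were cells under reprogramming by OKSM (the factors Oct4, Klf4, Sox2 and c-Myc) in a medium called AGi. Passaged induced pluripotent stem cells (iPSCs) grew in a medium called S/L, and the noOKSM samples were MEFs without the factors. The labels do not say how the K36M histone was delivered, how many animals or clones the cells came from, or whether the 2 libraries of a group were separate cultures, so p-values measure only the spread between these libraries. The noOKSM libraries carry another series of library numbers, and a difference between noOKSM and d0 cannot be told apart from that series.

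Interferons are secreted proteins that bind cell surface receptors and, through JAK kinases, activate STAT transcription factors. Type I and type III interferons lead to a complex that includes STAT2 and IRF9 and binds the interferon-stimulated response element (ISRE), and type II interferon acts through the gamma-activated site (GAS). IRF1 and NLRC5 drive class I genes, whose products carry peptides cut by the immunoproteasome and pumped into the endoplasmic reticulum by TAP to the cell surface together with beta-2-microglobulin. Pluripotent cells are known to respond weakly to interferon while holding part of this gene set at a basal level.

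Library totals ran from 17507521 to 35622279 counts. A gene was tested where it passed a filter on low counts (16932 genes), which kept 41 of the 43 genes. Mx1, a GTPase active against influenza virus, had at most 11 counts in any library, and Psmb9, an immunoproteasome subunit, had 6 counts in all over 2 overlapping records. How reads in that overlap were counted is not given, so the Psmb9 count may not reflect its level. Values are CPM, counts scaled to library size by TMM, differences are log2 fold changes from an edgeR quasi-likelihood fit, and a gene was taken to differ where its p, adjusted by Benjamini-Hochberg over all genes tested, fell below 0.05. The 2 K36M d6 libraries stood furthest apart (correlation of log2 CPM 0.977, against 0.995 to 0.998 in the other groups). Summed CPM of 7 fibroblast markers ran from 14372 to 24099 in the d0 and noOKSM libraries, and of 7 pluripotency markers from 5075 to 5453 in iPSCs. The WT and K36M iPSC libraries held 664 to 1060 CPM of the fibroblast markers. These sums lay below those of WT d8 (1712 and 1592) and above those of K36M d8 (83.1 and 98.3). Cd3e, which defines T cells, had at most 25 counts in any library, and the 11 macrophage markers summed to 59.8 and 56.2 CPM in WT d0 against 19.8 and 19.0 in K36M d0.

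Start sites of 34 of the 43 genes were present in a RefSeq table of mouse promoters (build GRCm38.p6, 39 windows from 250 bases before to 50 after the start). The ISRE core GAAANNGAAA, searched on both strands, stood in the windows of 16 of the 34 genes (47.1%), against 3.44% of all 32851 windows. The GAS TTCNNNGAA, which reads alike on both strands, stood in 8 of 34 (23.5%), against 8.3% of all. Both motifs were found in 4 genes, and neither in 14. Because a gene may have more than 1 window, these shares are descriptions. The 150 bases before the start are shown for 7 genes whose levels separated the groups below, 5′ to 3′ on the gene's strand, with ISRE core and GAS matches in capitals.
Isg15: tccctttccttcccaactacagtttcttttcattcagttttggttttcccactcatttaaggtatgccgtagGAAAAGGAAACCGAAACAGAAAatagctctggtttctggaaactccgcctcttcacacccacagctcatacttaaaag
Ifit1: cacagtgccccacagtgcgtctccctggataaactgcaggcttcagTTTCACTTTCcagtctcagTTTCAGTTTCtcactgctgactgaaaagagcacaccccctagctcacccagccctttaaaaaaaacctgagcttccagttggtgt
Gbp2: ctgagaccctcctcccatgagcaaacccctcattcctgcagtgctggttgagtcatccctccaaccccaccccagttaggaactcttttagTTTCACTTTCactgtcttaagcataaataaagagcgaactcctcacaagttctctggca
Bst2: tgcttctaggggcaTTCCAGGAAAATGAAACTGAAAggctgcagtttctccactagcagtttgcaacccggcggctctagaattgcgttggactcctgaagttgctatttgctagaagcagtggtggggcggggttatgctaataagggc
B2m: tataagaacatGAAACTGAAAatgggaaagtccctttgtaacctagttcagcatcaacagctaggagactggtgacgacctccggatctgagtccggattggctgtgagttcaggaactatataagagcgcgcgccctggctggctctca
Irf1: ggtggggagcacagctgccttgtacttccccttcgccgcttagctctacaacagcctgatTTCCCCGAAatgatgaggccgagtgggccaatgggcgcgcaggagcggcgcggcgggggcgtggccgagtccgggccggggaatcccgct
Psmb8: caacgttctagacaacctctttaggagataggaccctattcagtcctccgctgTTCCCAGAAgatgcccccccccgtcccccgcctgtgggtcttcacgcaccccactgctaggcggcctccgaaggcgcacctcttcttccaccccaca
The Isg15 stretch (chr4:156200819-156200968, minus strand) holds 3 overlapping ISRE cores and that of Ifit1 (chr19:34640739-34640888, plus strand) holds 2, while Gbp2 (chr3:142620513-142620662, plus strand) and B2m (chr2:122147537-122147686, plus strand) hold 1 each. In Bst2 (chr8:71537473-71537622, minus strand) a GAS runs into 2 overlapping ISRE cores. Irf1 (chr11:53769864-53770013, plus strand) and Psmb8 (chr17:34198045-34198194, plus strand) hold a GAS and no ISRE core. No match was found in the windows of H2-K1, H2-D1, Tap1, Ifitm1, Oasl2 or Lgals3bp, which says only that these letters are not there. A match is not evidence of a bound site.

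In WT cells the genes first fell and ended high. The medium changed from d0 to d2 and from d8 to iPSCs. Here and below, changes between d0, the reprogramming days and iPSCs cannot be told apart from the change of medium. At d2 against d0, 7 of 41 were higher and 20 lower (27.1% and 30.7% of all genes), with a median log2 fold change of -0.76 against 0.00 over all genes. At d8 against d0 the counts were 12 and 16 (32.7% and 31.4%). In iPSCs 34 were higher and 5 lower than at d0 (40.1% and 37.4%), with a median of 1.78 against 0.08 over all genes, and 33 were higher and 4 lower than at d8 (35.8% and 34.2%). The change from d8 to iPSCs took in 9 of 10 antiviral effectors and all 6 genes of the ISG15, ubiquitin and ADP-ribosyl group. Among the 5 class I and processing genes it was split, with H2-K1 and Psmb8 higher and Tap1 and B2m lower. K36M cells followed a like outline at d2, with 8 higher and 21 lower than at d0 (30% and 31.2%). In K36M iPSCs 34 were higher and 4 lower than at d0 (39.4% and 36.1%), and 31 and 5 than at d8 (27.1% and 24.5%). At d8 against d0, 18 were higher and 10 lower in K36M (39.5% and 34%). The counts of higher genes at d8 lie near the shares over all genes in both genotypes. Those shares also leaned further to higher in K36M than in WT, and the d8 counts were not tested against each other. The WT and K36M counts share no libraries. Below, the genotypes are compared gene by gene within each stage, and their courses from d0 by a joint test over d2 to iPSC.

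**Figure D1:**
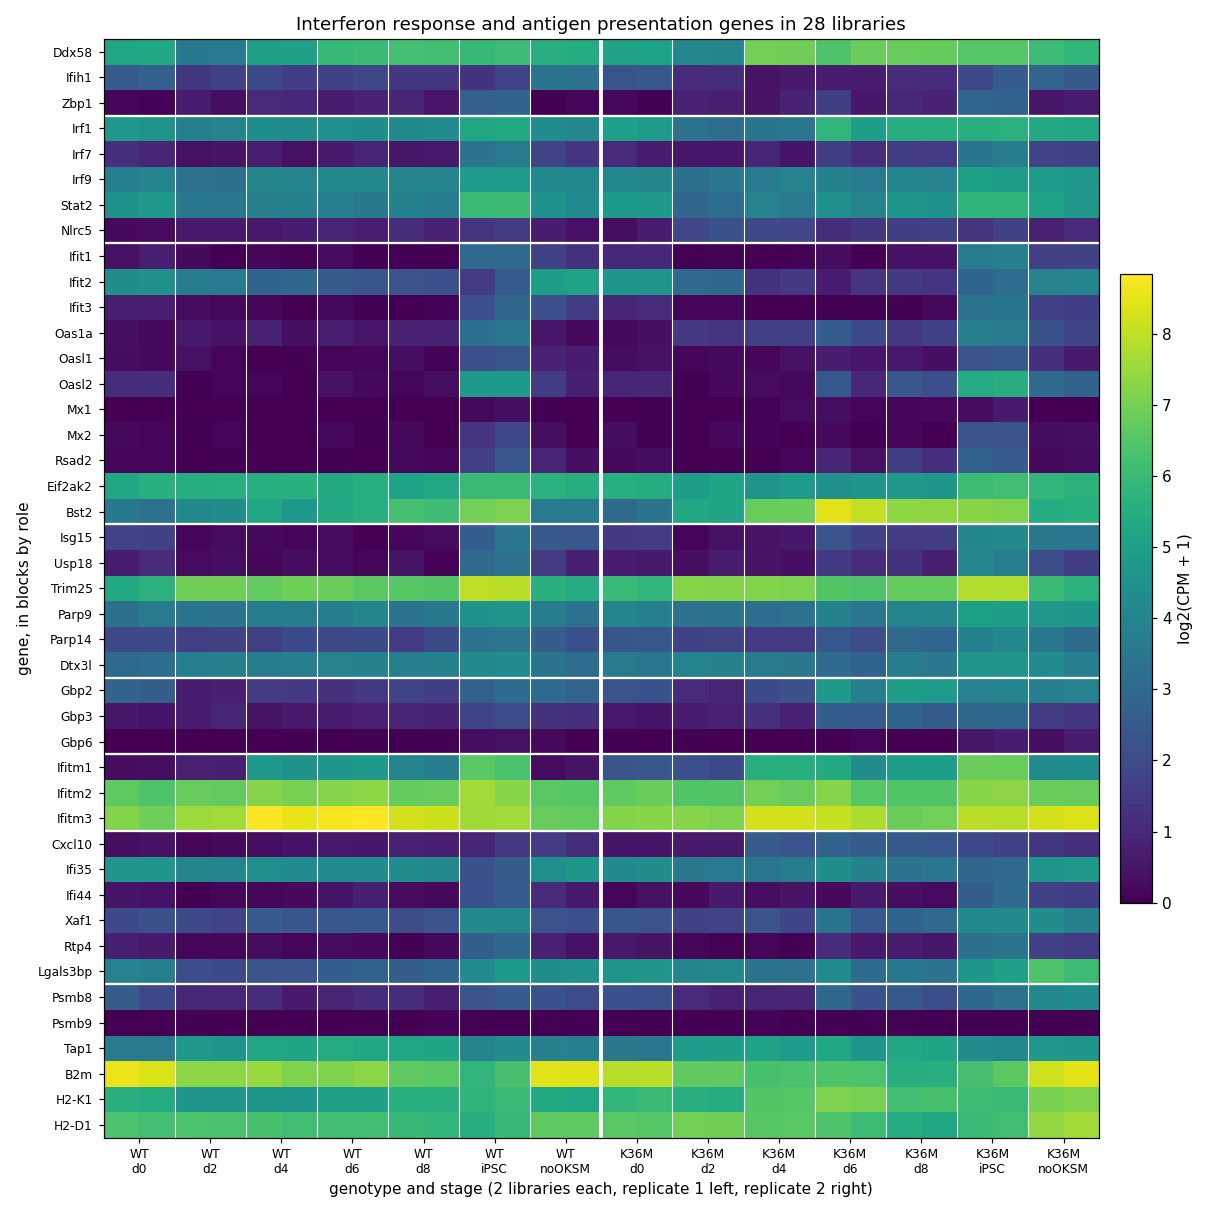
Heat map of log2(CPM + 1) of the 43 genes (rows, in blocks by role) in the 28 libraries (columns, 2 per genotype and stage, replicate 1 on the left of each pair). Ifit1 is dark from d2 to d8 in both genotypes, Oasl2 and Isg15 are dark in WT over these days and lighter in K36M at d6 and d8, and all 3 are brighter in iPSCs than in WT at d8, and Bst2, Gbp2 and H2-K1 are brighter in K36M than in WT at d6.

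K36M and WT cells differed least at d0 and in iPSCs. At d0, 5 of 41 genes were higher and 1 lower in K36M (7.6% and 8.31% of all genes). At d2 the counts were 9 and 6 (9.74% and 10.4%) and at d4 they were 13 and 8 (27.1% and 25.8%). By d6 they stood at 20 and 10 (37.3% and 33.7%) and by d8 at 23 and 6 (31.6% and 29%). At d4 and d6 many genes of the whole table differed too: at d6, 20 of 41 higher stands beside 37.3%, and 10 of 41 lower is a smaller share than 33.7%. Markers of cell state moved with genotype over the same days. All 7 pluripotency markers were called higher in K36M at d4, d6 and d8, with sums of 133 and 196 CPM in WT and 583 and 605 in K36M at d4. Their sums at d6 were 224 and 179 in WT and 2363 and 1596 in K36M, and at d8 they were 447 and 489 in WT and 1859.6 and 1837 in K36M. Most of the WT sums at d4 and d6 was Pou5f1, which encodes Oct4, 1 of the OKSM factors. Its group means at d4 and d6 were 163 and 180 CPM in WT and 439 and 856 in K36M. Nanog, which is not among those factors, read 0.260 and 10.5 in WT and 54.0 and 179 in K36M. Of the 7 fibroblast markers, 5 were lower at d4 and d6 and 6 at d8. Dcn read higher in K36M at d4 and d6 (group means 1.13 and 2.38 CPM in WT, 2.93 and 3.92 in K36M). Pdgfra read higher in K36M at d4 (0.736 in WT, 1.08 in K36M). The sums of the 7 fibroblast markers were 988 and 1185 CPM in WT and 267 and 276 in K36M at d4, and 1391 and 1316 in WT and 177 and 126 in K36M at d6. Most of these sums was Col1a1 and Col1a2 (group means 277 and 709 CPM in WT d4, 98.9 and 118 in K36M d4). The part of these markers in the K36M differences at d4 to d8 was not tested. The median log2 fold change was 0.68 at d6 and 0.80 at d8, against 0.08 and 0.04 over all genes. In iPSCs 4 were higher and 0 lower (0.756% and 0.49%), and in noOKSM MEFs 26 were higher and 2 lower (18.2% and 16.7%), with a median of 0.90 against 0.01. A difference shared over d2 to d8 (16 libraries, 37 genes tested) was called for 18 higher and 8 lower (30.2% and 28.2%). The K36M difference at d2 to iPSC departed jointly from that at d0 for 33 of 41 genes, a share near the 75.8% of all genes. Leaving out 1 library moved the d0 count from 6 to 2 (without WT replicate 1 or either K36M library) and the d2 count from 15 to 9 (without WT replicate 2). A fit of the 2 d6 groups alone, where the spread comes from those 4 libraries, called 19 genes in place of 30.

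**Figure D2:**
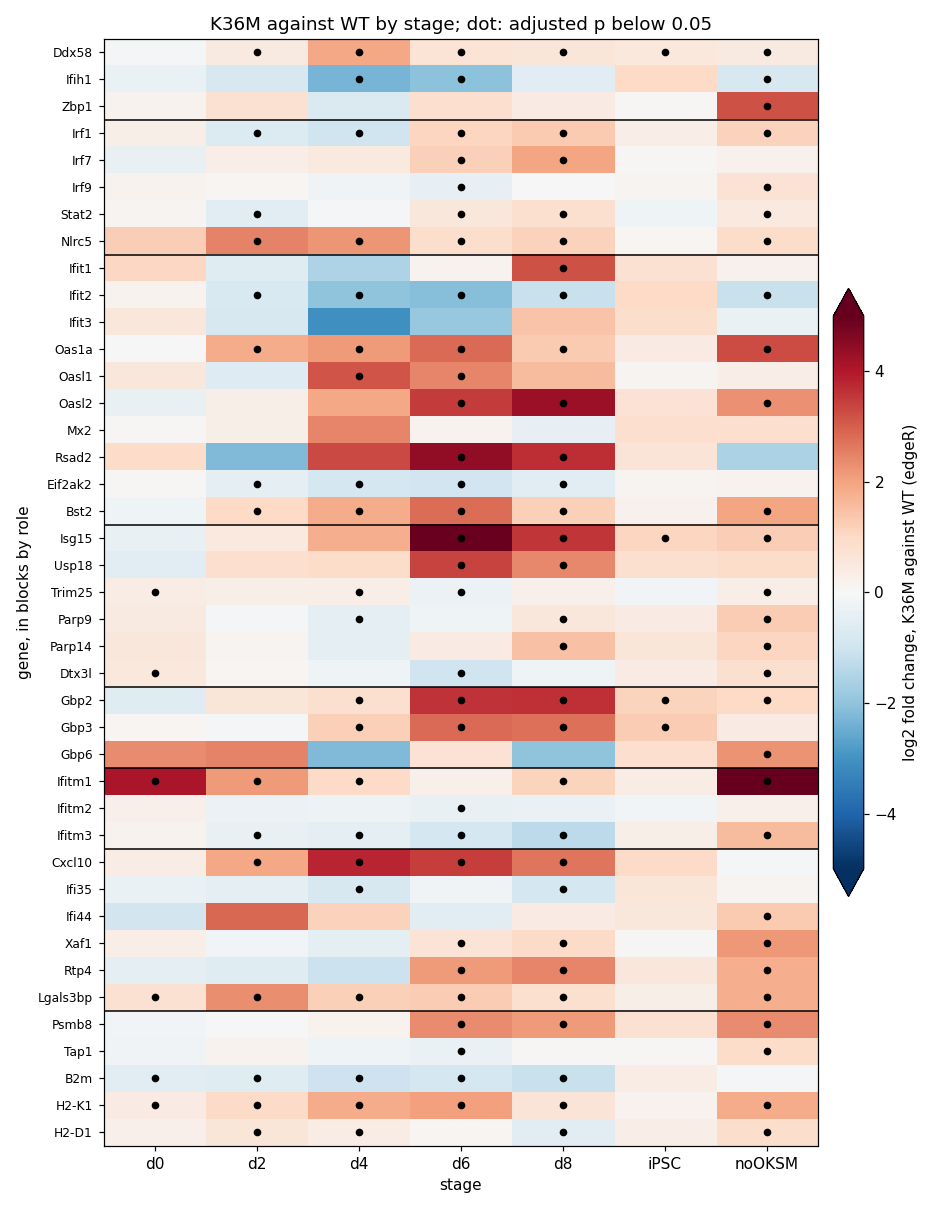
Heat map of the log2 fold change of K36M against WT (colour, red higher in K36M, blue lower; values beyond 5 take the end colour) for the 41 tested genes (rows, in blocks by role) at each stage (columns), with a dot where the adjusted p was below 0.05. Dots number 6 at d0, 30 at d6, 4 in iPSCs and 28 in noOKSM.

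The 2 RNA helicase sensors differed in opposite directions in K36M cells at d4, at d6 and in noOKSM. Ddx58 encodes RIG-I, which detects short RNA with a terminal triphosphate, and Ifih1 encodes MDA5, which detects long double-stranded RNA. In WT, Ddx58 was at 36.3 and 37.8 (d0), 11.0 and 11.7 (d2), 31.5 and 32.5 (d4), 59.5 and 64.1 (d6), 72.5 and 70.6 (d8) CPM. In K36M, Ddx58 was at 35.2 and 33.8 (d0), 16.1 and 15.3 (d2), 124 and 122 (d4), 83.9 and 113 (d6), 110.2 and 108 (d8). Ddx58 stood at 59.9 and 66.4 CPM in WT iPSCs, 90.9 and 91.3 in K36M iPSCs, 46.3 and 43.8 in WT noOKSM and 65.9 and 57.1 in K36M noOKSM. The K36M libraries lay above the WT libraries at every stage but d0, most clearly at d4 (log2 fold change 1.94, SE 0.11, adjusted p = 8.73e-13). The differences were 0.46 (d2), 0.68 (d6), 0.61 (d8), 0.53 in iPSCs and 0.45 in noOKSM. The d2 call was lost without WT replicate 1 (0.42) or without K36M replicate 1 (0.42), and the iPSC call without WT replicate 1 (0.45), without K36M replicate 1 (0.53) or without K36M replicate 2 (0.52).

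In WT, Ifih1 was at 4.88 and 5.61 (d0), 1.72 and 2.35 (d2), 2.92 and 2.03 (d4), 2.34 and 2.79 (d6), 1.70 and 1.72 (d8) CPM. In K36M, Ifih1 was at 3.88 and 4.38 (d0), 1.10 and 1.25 (d2), 0.394 and 0.564 (d4), 0.622 and 0.602 (d6), 1.20 and 1.16 (d8). Ifih1 stood at 1.45 and 2.44 CPM in WT iPSCs, 2.91 and 5.02 in K36M iPSCs, 9.92 and 8.96 in WT noOKSM and 6.31 and 4.66 in K36M noOKSM. Ifih1 was lower in K36M at d4 (log2 fold change -2.31, SE 0.37, adjusted p = 1.14e-05), at d6 (-2.06) and in noOKSM (-0.79), where its groups did not overlap. In iPSCs the K36M libraries were above the WT libraries, a difference that missed the threshold (log2 1.00, SE 0.26, adjusted p = 0.066). The noOKSM call was lost without WT replicate 1 (-0.71) or without K36M replicate 2 (-0.58). Zbp1, a sensor of Z-form nucleic acid, had 1 and 2 counts in WT noOKSM and 11 and 17 in K36M noOKSM (adjusted p = 0.00758), and that call was lost without WT replicate 1 (2.72) or without K36M replicate 2 (2.93).

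Among the transcription factors, Irf1 changed sign between the early and late days. In WT, Irf1 was at 25.2 and 22.7 (d0), 13.2 and 14.2 (d2), 20.2 and 18.9 (d4), 20.7 and 20.2 (d6), 18.0 and 18.4 (d8) CPM. In K36M, Irf1 was at 31.0 and 28.5 (d0), 9.11 and 7.86 (d2), 9.79 and 10.0 (d4), 56.0 and 29.3 (d6), 44.3 and 44.8 (d8). Irf1 stood at 35.7 and 40.0 CPM in WT iPSCs, 46.0 and 50.1 in K36M iPSCs, 18.2 and 16.5 in WT noOKSM and 39.5 and 37.7 in K36M noOKSM. Irf1 was lower in K36M at d2 (-0.68) and d4 (log2 fold change -0.98, SE 0.19, adjusted p = 0.000121) and higher at d6 (1.06), d8 (log2 fold change 1.29, SE 0.17, adjusted p = 8.83e-07) and in noOKSM (1.15). The d8 difference exceeded the d2 difference by 1.97 (adjusted p = 1.91e-06), in a contrast chosen after the values were seen that was called for 37.1% of all genes. The d2 call of Irf1 was lost without WT replicate 2 (-0.63) or without K36M replicate 2 (-0.59).

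In WT, Nlrc5 was at 0.161 and 0.204 (d0), 0.572 and 0.54 (d2), 0.531 and 0.634 (d4), 0.919 and 0.674 (d6), 1.16 and 0.833 (d8) CPM. In K36M, Nlrc5 was at 0.268 and 0.599 (d0), 2.71 and 3.63 (d2), 2.85 and 2.68 (d4), 1.24 and 1.73 (d6), 2.16 and 2.18 (d8). Nlrc5 stood at 1.60 and 1.99 CPM in WT iPSCs, 1.56 and 2.31 in K36M iPSCs, 0.629 and 0.363 in WT noOKSM and 0.847 and 1.07 in K36M noOKSM. Nlrc5, the coactivator of class I genes, was higher in K36M at d2 (log2 fold change 2.49, SE 0.31, adjusted p = 2.05e-06) and d4 (log2 fold change 2.21, SE 0.31, adjusted p = 2.13e-06), and still higher at d6 (0.90), d8 (1.15) and in noOKSM (0.93). Its d6 call was lost in a fit of the 2 groups alone (0.87), without WT replicate 2 (0.69) or without K36M replicate 2 (0.63), and its noOKSM call with DESeq2 (0.94), with no filter (0.91), with the replicate block (0.92), in a fit of the 2 groups alone (0.94), without WT replicate 2 (0.61), without K36M replicate 1 (1.08) or without K36M replicate 2 (0.74).

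In WT, Irf7 was at 1.34 and 0.918 (d0), 0.327 and 0.386 (d2), 0.69 and 0.317 (d4), 0.551 and 0.866 (d6), 0.498 and 0.537 (d8) CPM. In K36M, Irf7 was at 1.07 and 0.645 (d0), 0.46 and 0.434 (d2), 0.886 and 0.423 (d4), 2.09 and 1.16 (d6), 2.11 and 1.98 (d8). Irf7 stood at 9.42 and 11.8 CPM in WT iPSCs, 9.86 and 12.4 in K36M iPSCs, 2.52 and 1.57 in WT noOKSM and 2.50 and 2.33 in K36M noOKSM. Irf7, which amplifies type I interferon production, was higher in K36M at d6 (1.18) and d8 (log2 fold change 1.96, SE 0.37, adjusted p = 8.78e-05), and both genotypes reached their highest levels as iPSCs. Its d6 call was lost in a fit of the 2 groups alone (1.16), without WT replicate 1 (0.89) or without K36M replicate 1 (0.72).

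Stat2 and Irf9 encode partners in the ISRE-binding complex. In WT, Stat2 was at 22.1 and 26.2 (d0), 10.9 and 10.5 (d2), 13.3 and 13.6 (d4), 13.2 and 11.1 (d6), 13.9 and 12.5 (d8) CPM. In K36M, Stat2 was at 27.4 and 25.7 (d0), 6.58 and 7.97 (d2), 14.0 and 11.3 (d4), 21.4 and 14.7 (d6), 23.9 and 21.7 (d8). Stat2 stood at 61.8 and 63.7 CPM in WT iPSCs, 53.9 and 53.6 in K36M iPSCs, 22.3 and 18.5 in WT noOKSM and 32.9 and 25.1 in K36M noOKSM. Stat2 was lower in K36M at d2 (-0.56) and higher at d6 (0.57), d8 (log2 fold change 0.79, SE 0.16, adjusted p = 0.000163) and in noOKSM (0.50). Its d2 call was lost without WT replicate 1 (-0.53), without WT replicate 2 (-0.60) or without K36M replicate 1 (-0.43), its d6 call in a fit of the 2 groups alone (0.54), without WT replicate 2 (0.44) or without K36M replicate 1 (0.27), and its noOKSM call without WT replicate 2 (0.38) or without K36M replicate 1 (0.29).

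In WT, Irf9 was at 13.1 and 14.5 (d0), 9.15 and 8.68 (d2), 15.3 and 14.4 (d4), 16.8 and 16.5 (d6), 14.4 and 14.4 (d8) CPM. In K36M, Irf9 was at 16.2 and 15.4 (d0), 8.60 and 10.6 (d2), 12.0 and 14.0 (d4), 14.0 and 11.4 (d6), 15.0 and 14.3 (d8). Irf9 stood at 27.8 and 27.99 CPM in WT iPSCs, 31.8 and 29.5 in K36M iPSCs, 16.5 and 16.1 in WT noOKSM and 27.8 and 25.5 in K36M noOKSM. Irf9 differed little through reprogramming, with a lower level in K36M at d6 (-0.39) and a higher one in noOKSM (log2 fold change 0.71, SE 0.11, adjusted p = 1.77e-05). The d6 call was lost in a fit of the 2 groups alone (-0.42) or without K36M replicate 2 (-0.26).

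Among the antiviral effectors, Oasl2, Rsad2 and Ifit1 stayed under 1 CPM in WT cells from d2 to d8, while Bst2 did not. Of 10 tested, 5 were higher and 2 lower in K36M at d6 (37.3% and 33.7% of all genes), and again 5 and 2 at d8 (31.6% and 29%). Oasl2, a member of the oligoadenylate synthetase-like family, read 0.322 and 0.144 CPM in WT and 4.44 and 1.04 in K36M at d6 (log2 fold change 3.49, SE 0.68, adjusted p = 0.000112). At d8 it read 0.083 and 0.269 and 4.27 and 3.44 (log2 fold change 4.27, SE 0.61, adjusted p = 3.41e-06). In iPSCs Oasl2 stood at 26.9 and 26.6 in WT and 42.9 and 45.1 in K36M, so the K36M level at d8 was well below that of iPSCs. Rsad2, which encodes viperin and was chosen after its values were seen, read 0.166 and 0.107 CPM in WT d8 and 2.16 and 1.35 in K36M d8 (log2 fold change 3.69, SE 0.62, adjusted p = 2.7e-05).

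In WT, Ifit1 was at 0.322 and 0.663 (d0), 0.163 and 0 (d2), 0.106 and 0.0634 (d4), 0.184 and 0 (d6), 0.0415 and 0.0269 (d8) CPM. In K36M, Ifit1 was at 1.03 and 1.01 (d0), 0.046 and 0.0542 (d2), 0 and 0.047 (d4), 0.222 and 0 (d6), 0.336 and 0.339 (d8). Ifit1 stood at 7.12 and 7.25 CPM in WT iPSCs, 11.1 and 13.0 in K36M iPSCs, 2.31 and 1.45 in WT noOKSM and 2.16 and 2.29 in K36M noOKSM. Ifit1, which binds viral RNA lacking a methylated cap, passed the test only at d8 among the 7 stages, where WT had 1 count in each library and K36M 7 in each (adjusted p = 0.00996), and the call was lost without WT replicate 2 (2.86). Its neighbour Ifit2 went in the other direction from Oasl2. Ifit2 was lower in K36M at d2 (-0.76), d4 (6.21 and 6.53 against 1.43 and 1.74 CPM, log2 fold change -2.01, SE 0.30, adjusted p = 5.48e-06), d6 (-2.15), d8 (-1.09) and noOKSM (29.3 and 33.6 against 14.1 and 14.6 CPM, log2 fold change -1.13, SE 0.20, adjusted p = 0.000128). The d2 call was lost without WT replicate 1 (-0.73), without WT replicate 2 (-0.80), without K36M replicate 1 (-0.80) or without K36M replicate 2 (-0.73). Ifit1, Ifit2 and Ifit3 lie within chr19:34625184-34724499 (mm9) and share sequence, and how reads that match several places were counted is not given in the sources used here. Eif2ak2, which encodes the kinase PKR and was likewise chosen after its values were seen, was also lower in K36M from d2 to d8 (-0.48, -0.89, -0.95 and -0.53).

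Bst2 encodes tetherin, which holds budding virus at the cell surface. In WT, Bst2 was at 10.8 and 8.83 (d0), 17.2 and 19.8 (d2), 37.5 and 25.2 (d4), 41.3 and 46.3 (d6), 74.2 and 66.9 (d8) CPM. In K36M, Bst2 was at 7.41 and 9.72 (d0), 39.0 and 34.9 (d2), 109 and 115 (d4), 351 and 264 (d6), 162 and 164 (d8). Bst2 stood at 125 and 135 CPM in WT iPSCs, 155 and 144 in K36M iPSCs, 11.5 and 11.7 in WT noOKSM and 43.3 and 47.8 in K36M noOKSM. The 2 genotypes did not overlap from d2 to d8 or in noOKSM, with differences of 1.00 (d2), 1.85 (d4), 1.21 (d8) and 1.98 in noOKSM. The largest was at d6 (log2 fold change 2.81, SE 0.16, adjusted p = 4e-13), where K36M cells passed the level of iPSCs. Oas1a, an oligoadenylate synthetase that activates RNase L, was higher in K36M over the same stages: 1.85 (d2), 2.11 (d4), 2.83 (d6), 1.29 (d8) and 3.27 in noOKSM (0.454 and 0.161 against 3.68 and 2.56 CPM). Without WT d2 replicate 2 the d2 call of Oas1a was lost.

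Isg15, a ubiquitin-like protein coupled to other proteins after interferon, and Usp18, the enzyme that removes it, were higher in K36M late in reprogramming. In WT, Isg15 was at 2.47 and 2.30 (d0), 0.0817 and 0.193 (d2), 0.159 and 0.0952 (d4), 0.184 and 0 (d6), 0.124 and 0.188 (d8) CPM. In K36M, Isg15 was at 1.74 and 1.98 (d0), 0.092 and 0.325 (d2), 0.394 and 0.47 (d4), 3.87 and 2.25 (d6), 1.87 and 2.08 (d8). Isg15 stood at 5.31 and 10.1 CPM in WT iPSCs, 15.6 and 16.8 in K36M iPSCs, 4.61 and 4.28 in WT noOKSM and 10.7 and 10.1 in K36M noOKSM. WT d6 held 4 and 0 counts of Isg15 and K36M d6 held 87 and 56 (log2 fold change 4.94, SE 0.57, adjusted p = 7.72e-08). Isg15 was also higher in K36M at d8 (log2 fold change 3.56, SE 0.51, adjusted p = 2.39e-06), in iPSCs (1.06) and in noOKSM (1.22). Its iPSC call was lost in a fit of the 2 groups alone (1.06), without WT replicate 1 (0.69), without K36M replicate 1 (1.12) or without K36M replicate 2 (1.00).

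In WT, Usp18 was at 0.59 and 1.07 (d0), 0.204 and 0.27 (d2), 0.106 and 0.222 (d4), 0.184 and 0.0963 (d6), 0.415 and 0.0537 (d8) CPM. In K36M, Usp18 was at 0.58 and 0.553 (d0), 0.276 and 0.597 (d2), 0.394 and 0.282 (d4), 1.87 and 1.16 (d6), 1.44 and 0.726 (d8). Usp18 stood at 7.47 and 9.19 CPM in WT iPSCs, 16.0 and 12.9 in K36M iPSCs, 1.96 and 0.726 in WT noOKSM and 3.05 and 2.14 in K36M noOKSM. Usp18 was higher in K36M at d6 (log2 fold change 3.37, SE 0.69, adjusted p = 0.000162) and d8 (2.41), and the d8 call was lost without WT replicate 2 (1.37) or without K36M replicate 1 (1.84). Parp9 and Dtx3l, an ADP-ribosyltransferase and its partner ubiquitin ligase, share 458 exonic bases on opposite strands of chromosome 16, and their counts may not be separate. Dtx3l was higher in K36M at d0 (7.19 and 8.16 against 11.8 and 10.0 CPM, 0.51) and lower at d6 (14.1 and 13.8 against 7.60 and 6.22 CPM, -1.01). Its d0 call was lost without WT replicate 1 (0.42) or without K36M replicate 1 (0.39).

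Guanylate-binding proteins are GTPases that attack the membranes of intracellular pathogens. Gbp2 read 6.01 and 5.41 CPM in WT d0 and fell to 0.613 and 0.694 at d2. At d6 Gbp2 read 1.38 and 1.78 in WT and 26.1 and 12.7 in K36M (log2 fold change 3.61, SE 0.26, adjusted p = 4.1e-11), and at d8 2.53 and 2.10 and 30.2 and 27.9 (log2 fold change 3.66, SE 0.24, adjusted p = 7.08e-12). The K36M d8 level lay above that of either iPSC group (5.76 and 7.49 in WT and 14.1 and 14.9 in K36M). Gbp3, on the same cluster of chromosome 3, differed likewise at d6 (2.82) and d8 (2.77). Both were also higher in K36M iPSCs (Gbp2 log2 fold change 1.12, SE 0.22, adjusted p = 0.00815, and Gbp3 log2 fold change 1.26, SE 0.20, adjusted p = 0.000849). In iPSCs the Gbp2 call was lost without WT replicate 1 (0.95) or without K36M replicate 2 (1.08), and the Gbp3 call without WT replicate 1 (1.10).

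**Figure D3:**
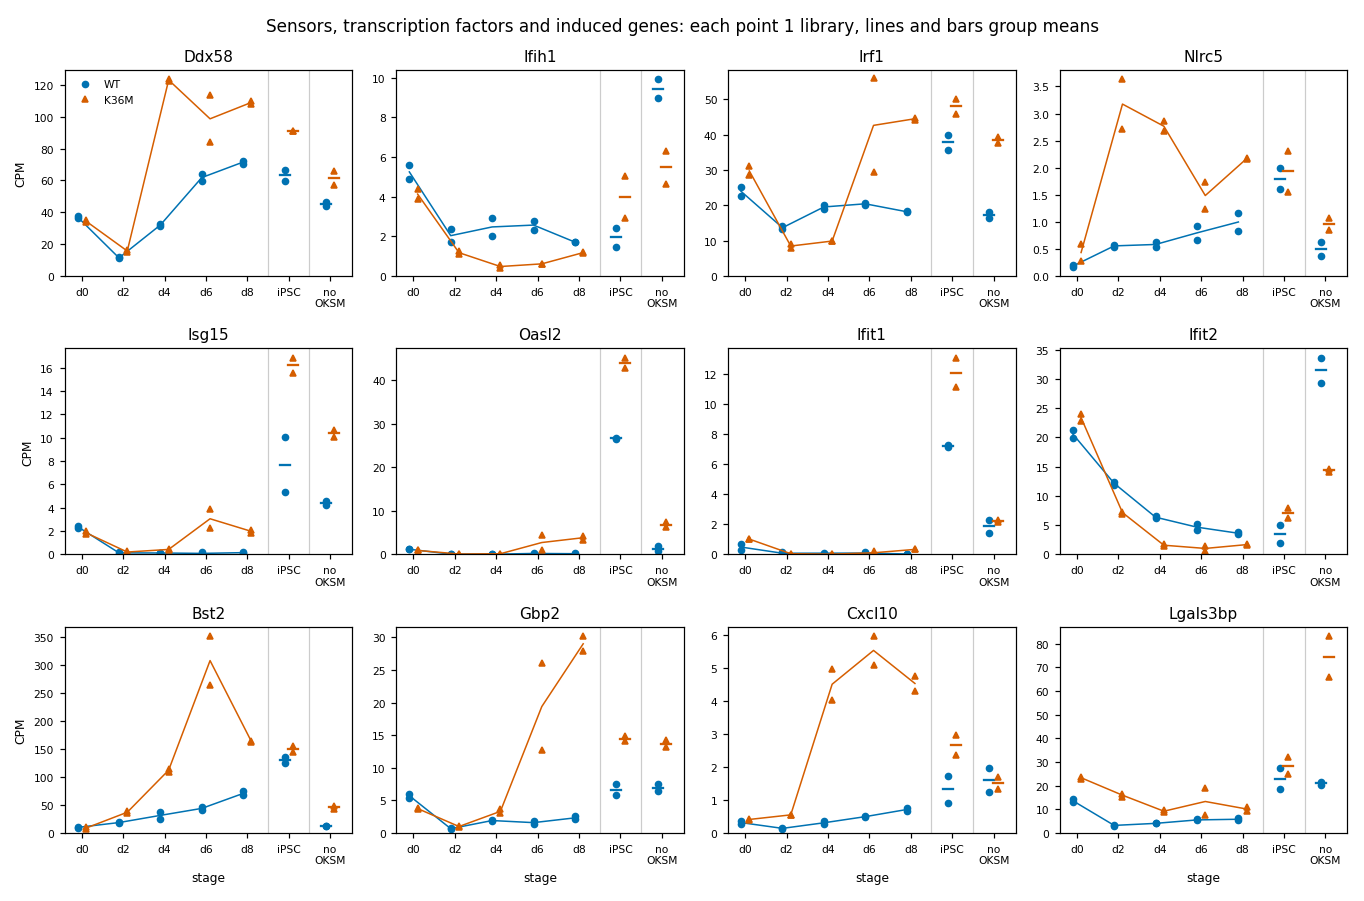
CPM (linear axis from 0) of 12 genes in each library at d0, d2, d4, d6, d8, iPSC and noOKSM, blue circles for WT and orange triangles for K36M. Lines join the group means from d0 to d8, and bars mark the means of iPSC and noOKSM; Ddx58, Bst2 and Cxcl10 separate by genotype from d2 to d8, Isg15, Oasl2 and Gbp2 at d6 and d8, and Ifih1 and Ifit2 lie lower in K36M at d4 and d6.

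The 3 IFITM genes, whose products block virus entry at membranes, lie next to each other (chr7:148140736-148196669, mm9) and differed in their pattern. In WT, Ifitm1 was at 0.215 and 0.255 (d0), 0.776 and 0.694 (d2), 25.5 and 22.3 (d4), 23.8 and 26.9 (d6), 15.1 and 12.4 (d8) CPM. In K36M, Ifitm1 was at 4.02 and 4.24 (d0), 3.50 and 2.98 (d2), 46.6 and 46.2 (d4), 41.1 and 19.1 (d6), 29.3 and 29.1 (d8). Ifitm1 stood at 95.1 and 78.9 CPM in WT iPSCs, 113 and 109.6 in K36M iPSCs, 0.21 and 0.403 in WT noOKSM and 18.6 and 18.8 in K36M noOKSM. Ifitm1 was higher in K36M at d0 (log2 fold change 4.10, SE 0.52, adjusted p = 7.82e-06), d2 (2.14), d4 (0.96) and d8 (1.10), and in noOKSM the difference was the largest of all 41 genes (log2 fold change 5.94, SE 0.37, adjusted p = 5.64e-11).

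In WT, Ifitm3 was at 147 and 119 (d0), 188 and 195 (d2), 449 and 378 (d4), 423 and 460.3 (d6), 303 and 286 (d8) CPM. In K36M, Ifitm3 was at 145 and 156 (d0), 152 and 142 (d2), 303 and 305 (d4), 268 and 216 (d6), 116 and 124 (d8). Ifitm3 stood at 191 and 197 CPM in WT iPSCs, 244 and 237 in K36M iPSCs, 111 and 105 in WT noOKSM and 303 and 336 in K36M noOKSM. Under reprogramming Ifitm3 was lower in K36M at each day, from -0.39 at d2 through -0.44 at d4 and -0.87 at d6 to -1.30 at d8 (adjusted p = 7.5e-10). Without the factors it was higher (log2 fold change 1.57, SE 0.11, adjusted p = 2.15e-10). The noOKSM difference exceeded the d8 difference by 2.86 (adjusted p = 1.16e-12), in a contrast chosen after the values were seen that was called for 43.7% of all genes. The d2 call was lost without WT replicate 2 (-0.36) or without K36M replicate 2 (-0.34).

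In WT, Ifitm2 was at 98.6 and 83.5 (d0), 111 and 105 (d2), 151 and 131 (d4), 151 and 163 (d6), 107 and 109 (d8) CPM. In K36M, Ifitm2 was at 102 and 113 (d0), 86.0 and 88.3 (d2), 125 and 111 (d4), 151 and 91.4 (d6), 86.5 and 85.6 (d8). Ifitm2 stood at 194 and 153 CPM in WT iPSCs, 155 and 159 in K36M iPSCs, 95.8 and 90.4 in WT noOKSM and 113 and 109 in K36M noOKSM. Its levels varied least of the 3, and 1 difference passed the test (d6, -0.37), which was lost at a minimum count of 50 (-0.34), in a fit of the 2 groups alone (-0.41), without WT replicate 1 (-0.43), without WT replicate 2 (-0.32) or without K36M replicate 2 (-0.06). Per exon length, Ifitm3 was at 196 RPKM in WT d0 and 471 in K36M noOKSM, beside 412 and 379.7 for B2m (group means). The 3 genes are close paralogs, and reads that match more than 1 of them are uncertain.

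Cxcl10 encodes a chemokine that attracts activated T cells. In WT, Cxcl10 was at 0.268 and 0.357 (d0), 0.123 and 0.154 (d2), 0.265 and 0.349 (d4), 0.505 and 0.481 (d6), 0.747 and 0.672 (d8) CPM. In K36M, Cxcl10 was at 0.402 and 0.414 (d0), 0.552 and 0.542 (d2), 4.97 and 4.04 (d4), 5.95 and 5.10 (d6), 4.75 and 4.31 (d8). Cxcl10 stood at 0.902 and 1.74 CPM in WT iPSCs, 2.96 and 2.36 in K36M iPSCs, 1.96 and 1.25 in WT noOKSM and 1.69 and 1.34 in K36M noOKSM. It was higher in K36M from d2 (1.94) through d4 (log2 fold change 3.81, SE 0.31, adjusted p = 4.39e-10), d6 (3.47) and d8 (2.68), and in noOKSM the groups overlapped (log2 -0.10, SE 0.26, adjusted p = 0.816). The d2 call was lost without WT replicate 1 (1.79), without WT replicate 2 (2.11) or without K36M replicate 1 (1.92). Lgals3bp, a secreted glycoprotein, was higher in K36M at d0 (0.78), d2 (3.39 and 2.97 against 15.4 and 16.5 CPM, log2 fold change 2.33, SE 0.29, adjusted p = 4.44e-06), d4, d6, d8 and in noOKSM (20.4 and 21.6 against 83.2 and 65.8 CPM, 1.83). Its d0 call was lost without WT replicate 1 (0.84), without WT replicate 2 (0.72), without K36M replicate 1 (0.81) or without K36M replicate 2 (0.75).

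The class I heavy chain gene H2-K1 and the gene of its partner beta-2-microglobulin went in opposite directions from d0 to d8. H2-K1 (chr17:34132962-34137278, mm9) and H2-D1 (chr17:35399675-35404444) encode the heavy chains, and B2m (chr2:121973422-121978819) the light chain that both need at the surface. In WT, H2-K1 was at 47.4 and 42.4 (d0), 23.3 and 23.4 (d2), 24.8 and 23.8 (d4), 32.3 and 32.6 (d6), 48.5 and 47.4 (d8) CPM. In K36M, H2-K1 was at 57.0 and 62.5 (d0), 46.6 and 43.5 (d2), 87.6 and 89.6 (d4), 138 and 131 (d6), 71.6 and 76.3 (d8). H2-K1 stood at 53.7 and 60.9 CPM in WT iPSCs, 66.1 and 62.9 in K36M iPSCs, 40.6 and 36.4 in WT noOKSM and 133 and 145 in K36M noOKSM. K36M libraries lay above WT libraries at all 7 stages, and the difference passed the test at 6: 0.41 (d0), 0.95 (d2), 1.87 (d4), 2.05 (d6, adjusted p = 8.44e-15), 0.63 (d8) and 1.85 in noOKSM. The d0 call was lost without K36M replicate 2 (0.34).

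In WT, B2m was at 385 and 323 (d0), 157 and 158 (d2), 179 and 141 (d4), 140.0 and 157 (d6), 102 and 95.3 (d8) CPM. In K36M, B2m was at 240.0 and 244 (d0), 103 and 103 (d2), 76.6 and 77.8 (d4), 83.6 and 79.8 (d6), 44.7 and 45.7 (d8). B2m stood at 55.4 and 77.3 CPM in WT iPSCs, 75.1 and 96.9 in K36M iPSCs, 344 and 330.1 in WT noOKSM and 298 and 355 in K36M noOKSM. B2m was lower in K36M at all 5 stages from d0 to d8, with log2 fold changes of -0.55 (d0), -0.62 (d2), -1.05 (d4), -0.86 (d6) and -1.12 (d8, adjusted p = 3.99e-07). In noOKSM the groups overlapped (log2 -0.04, SE 0.14, adjusted p = 0.844). The d0 call was lost without WT replicate 1 (-0.42), without K36M replicate 1 (-0.53) or without K36M replicate 2 (-0.56). Macrophage markers were also lower in K36M d0 (above), and their part in the d0 value was not tested.

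In WT, H2-D1 was at 80.5 and 73.3 (d0), 81.0 and 79.2 (d2), 76.9 and 69.2 (d4), 70.6 and 71.3 (d6), 59.5 and 57.5 (d8) CPM. In K36M, H2-D1 was at 94.1 and 90.8 (d0), 123 and 121 (d2), 93.4 and 94.4 (d4), 83.5 and 66.6 (d6), 42.7 and 38.0 (d8). H2-D1 stood at 44.6 and 59.8 CPM in WT iPSCs, 60.8 and 69.7 in K36M iPSCs, 99.9 and 101 in WT noOKSM and 171 and 198 in K36M noOKSM. H2-D1 was higher in K36M at d2 (0.60) and d4 (0.36), lower at d8 (log2 fold change -0.53, SE 0.12, adjusted p = 0.000606) and higher in noOKSM (log2 fold change 0.88, SE 0.12, adjusted p = 3.21e-06). Its d4 call was lost without WT replicate 2 (0.29) or without K36M replicate 2 (0.35). H2-K1 and H2-D1 are near copies of each other and of other class I genes, so their counts depend on how shared reads were treated.

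Psmb8 encodes an immunoproteasome subunit that replaces the constitutive subunit of Psmb5, and Tap1 encodes 1 chain of the peptide pump. In WT, Psmb8 was at 5.15 and 2.91 (d0), 1.02 and 0.964 (d2), 1.17 and 0.571 (d4), 0.873 and 1.16 (d6), 1.20 and 0.672 (d8) CPM. In K36M, Psmb8 was at 3.71 and 3.50 (d0), 1.15 and 0.759 (d2), 0.886 and 0.939 (d4), 6.80 and 3.65 (d6), 4.51 and 3.34 (d8). Psmb8 stood at 4.06 and 5.01 CPM in WT iPSCs, 6.80 and 8.78 in K36M iPSCs, 3.67 and 3.15 in WT noOKSM and 16.6 and 18.9 in K36M noOKSM. Psmb8 did not pass the test at d0, d2 or d4 and was higher in K36M at d6 (log2 fold change 2.35, SE 0.35, adjusted p = 2.94e-06), d8 (log2 fold change 2.13, SE 0.35, adjusted p = 1.51e-05) and in noOKSM (log2 fold change 2.38, SE 0.26, adjusted p = 1.62e-07). The constitutive subunits Psmb5, Psmb6 and Psmb7 were higher in K36M at d6 (0.82, 1.16 and 1.24). At d8 Psmb5 was slightly lower (-0.34) and Psmb6 and Psmb7 did not pass.

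In WT, Tap1 was at 11.6 and 11.8 (d0), 26.0 and 24.9 (d2), 36.6 and 34.9 (d4), 42.2 and 37.6 (d6), 35.6 and 34.9 (d8) CPM. In K36M, Tap1 was at 10.6 and 10.2 (d0), 28.5 and 29.4 (d2), 33.1 and 28.7 (d4), 39.0 and 24.4 (d6), 37.7 and 35.3 (d8). Tap1 stood at 15.4 and 18.1 CPM in WT iPSCs, 18.6 and 16.6 in K36M iPSCs, 13.5 and 13.1 in WT noOKSM and 25.3 and 24.4 in K36M noOKSM. Tap1 changed with the stage: it was higher at d8 than at d0 in WT (log2 fold change 1.59) and lower in WT iPSCs than at d8 (-1.07). It was higher in K36M noOKSM (log2 fold change 0.90, SE 0.15, adjusted p = 3.59e-05). The d6 difference (-0.34) was lost with DESeq2 (-0.32), at a minimum count of 50 (-0.30), in a fit of the 2 groups alone (-0.37), without WT replicate 1 (-0.25) or without K36M replicate 2 (-0.04).

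**Figure D4:**
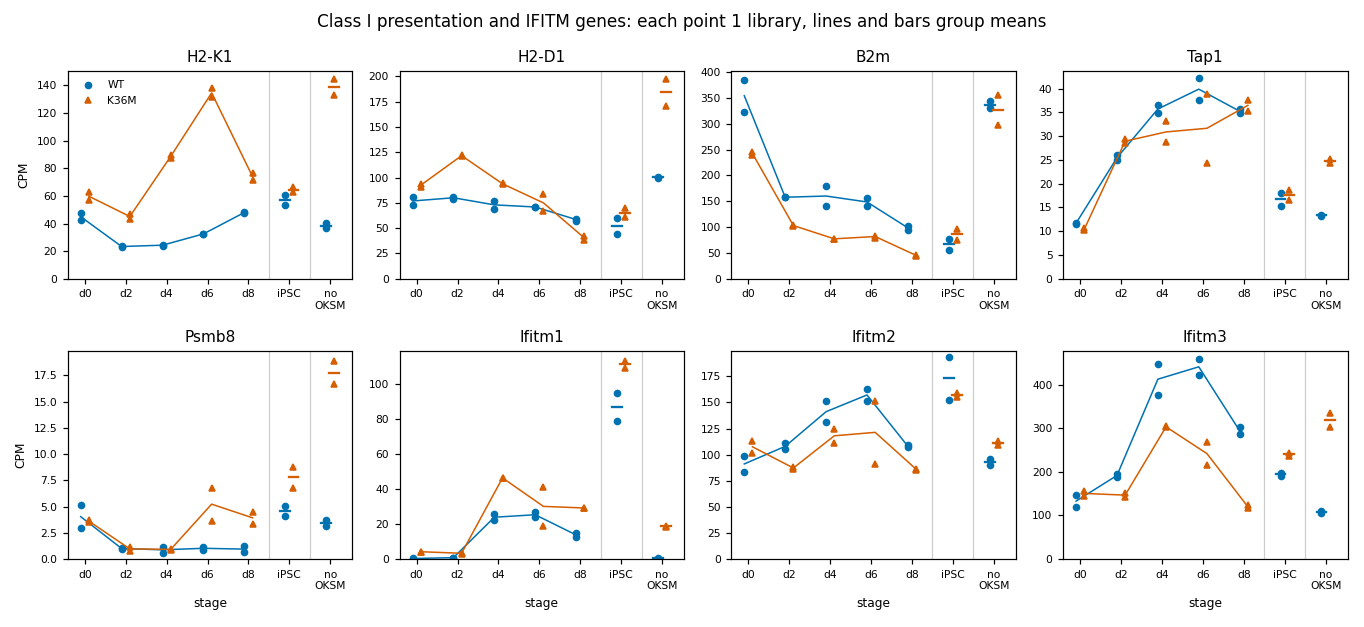
CPM (linear axis from 0) of 5 class I presentation genes and 3 IFITM genes in each library by stage, blue circles for WT and orange triangles for K36M, with lines and bars at group means. H2-K1 lies higher and B2m lower in K36M from d0 to d8, and Ifitm3 lies lower in K36M from d2 to d8 and higher in noOKSM.

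In iPSCs the genotypes were close, yet most of the genes leaned 1 way. Both K36M libraries lay above both WT libraries for 31 of 41 tested genes and below for 2, beside 23.7% and 26.5% of all genes. The median log2 fold change was 0.41 against 0.00 over all genes. The 4 genes that passed the test were Gbp3, Gbp2, Isg15 and Ddx58. The count was 0 without WT replicate 1, 11 without WT replicate 2 and 1 without K36M replicate 2, and 22 in a fit of the iPSC groups alone. WT replicate 1 was the lower of the WT pair for Isg15 (5.31 and 10.1 CPM), Ifit2 (1.90 and 5.01) and B2m (55.4 and 77.3). Fibroblast marker sums overlapped in the iPSC libraries, at 664 and 1027 CPM in WT and 886 and 1060 in K36M, with 0 of 7 markers called, and their part in these differences was not tested.

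MEFs without the factors gave the broadest rise in K36M. The 26 genes that were higher took in 2 of 3 sensors, 4 of 5 transcription factors, 3 of 10 effectors, 5 of 6 genes of the ISG15, ubiquitin and ADP-ribosyl group, 2 of 3 guanylate-binding genes, 2 of 3 IFITM genes, 4 of 6 chemokine or other induced genes and 4 of 5 class I and processing genes. Lower were Ifit2 and Ifih1. Within WT, noOKSM differed from d0 for 6 genes, all higher (4.15% and 4.06%), and within K36M for 32 higher and 1 lower (18.8% and 15.6%). The WT count fell to 3 without WT d0 replicate 1 and to 2 without WT noOKSM replicate 1. The K36M difference itself was larger at noOKSM than at d0 for 17 genes and smaller for 1, Ifit2 (12.8% and 12.2%). Among these were Psmb8 (2.53), Bst2 (2.17), H2-K1 (1.44) and Ifitm3 (1.39). The macrophage markers summed to 15.6 and 16.6 CPM in WT noOKSM and to 9.95 and 13.2 in K36M noOKSM. The 5 endothelial markers summed to 5.73 and 7.06 CPM in WT and 18.6 and 22.9 in K36M. Most of that sum was Emcn (group means 4.33 in WT and 18.7 in K36M). Kdr was lower in K36M (1.80 and 0.729), and Pecam1, Cdh5 and Tie1 stayed under 1 CPM in both genotypes. The 4 lymphocyte markers summed to 0.0349 and 0.0403 CPM in WT and 1.27 and 1.49 in K36M, where Nkg7, a gene of natural killer and cytotoxic T cells, had 24 and 36 counts against 0 and 0. The 7 pluripotency markers summed to 0.838 and 1.13 CPM in WT and 1.44 and 4.01 in K36M, with 3 called higher. The part of these markers in the rise was not tested.

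Genes around this set were read from fixed lists. The interferon genes on the list, which holds part of the Ifna family, were at or near 0: of 10 ligand genes 6, among them Ifnb1 and Ifng, had no count in any of the 28 libraries, and each of the other 4 had 1 to 3 counts in all. A count of 0 over the summed libraries allows a level of up to 0.00466 CPM as a mean over all 28 libraries (3 counts, counting error only). The level allowed within 1 group of 2 libraries is higher. Ifnar1, a subunit of the type I receptor, read 95.0 and 103 (d0), 67.8 and 68.6 (d2), 72.3 and 76.4 (d4), 68.9 and 75.8 (d6), 57.0 and 59.0 (d8) CPM in WT. In K36M, Ifnar1 read 100.3 and 111 (d0), 63.1 and 62.5 (d2), 67.5 and 65.8 (d4), 43.1 and 54.1 (d6), 57.1 and 58.1 (d8), and it differed only at d6 among the 7 stages (-0.57). Ifngr1, a subunit of the type II receptor, read 65.2 and 58.2 (d0), 25.4 and 26.9 (d2), 24.7 and 23.6 (d4), 23.6 and 23.2 (d6), 17.7 and 18.0 (d8) in WT and was lower in K36M at d2 (-0.31), d4 (log2 fold change -1.21, SE 0.10, adjusted p = 6.11e-10), d6 (-1.15) and d8 (-0.80). Of 14 receptor and signalling genes, 2 were higher and 8 lower in K36M at d4 (27.1% and 25.8% of all genes), 2 and 10 at d6 (37.3% and 33.7%), and 3 and 10 at d8 (31.6% and 29%). At d8 these included Il10rb (-2.11), Ifngr2 (-1.84) and Ifnar2 (-1.68), all receptor subunits. In noOKSM 5 were higher and 2 lower (18.2% and 16.7%), led by Socs3 (2.28), a feedback inhibitor of JAK signalling. Under reprogramming Socs3 lay lower in K36M from d2 to d8. It read 118 and 114 CPM in WT against 19.7 and 20.4 in K36M at d4, and 92.6 and 95.5 against 44.3 and 41.7 at d8.

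Of 10 nucleic acid sensing genes, 1 was higher and 6 lower in K36M at d8 (31.6% and 29% of all genes), with Tmem173 (STING) the most changed (25.8 and 25.5 against 5.95 and 6.10 CPM, log2 fold change -2.09, SE 0.11, adjusted p = 1.61e-13). In noOKSM Tmem173 was higher (1.10). Of 13 antigen loading and other class I genes, 8 were higher and 3 lower at d6 (37.3% and 33.7% of all genes), and 11 were higher and 0 lower in noOKSM (18.2% and 16.7%). H2-Q4, a class I gene of the Q region, was among those most changed at d6 (0.735 and 1.20 against 15.5 and 10.7 CPM, log2 fold change 3.75, SE 0.21, adjusted p = 4.16e-13). Class II genes serve presentation to CD4 T cells in professional antigen-presenting cells. Of 4 tested, 3 were higher in K36M at d2 and d8 (9.74% and 31.6% of all genes). All 4 were higher at d4 and d6 (27.1% and 37.3%). Ciita, also on this list, did not pass the filter (70 counts in all). H2-Eb1 read 0.59 and 0.255 (d0), 0.735 and 0.617 (d2), 0.584 and 0.603 (d4), 0.873 and 1.16 (d6), 2.53 and 2.12 (d8) CPM in WT. In K36M, H2-Eb1 read 0.313 and 0.23 (d0), 4.19 and 4.72 (d2), 22.2 and 25.3 (d4), 63.6 and 42.0 (d6), 41.2 and 42.5 (d8), with the largest difference at d6 (log2 fold change 5.70, SE 0.21, adjusted p = 5.19e-16). The dendritic cell markers summed to 1.93 and 1.97 CPM in WT d6 and 3.60 and 4.46 in K36M d6. Most of that sum was Zbtb46 (group means 1.62 and 3.77), which stood at 8.92 in WT d0 MEFs. At d6 Flt3 was at 0.331 in WT and 0.254 in K36M, and Itgax and Siglech were at 0 in both. The part of these markers in the class II values was not tested.

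**Figure D5:**
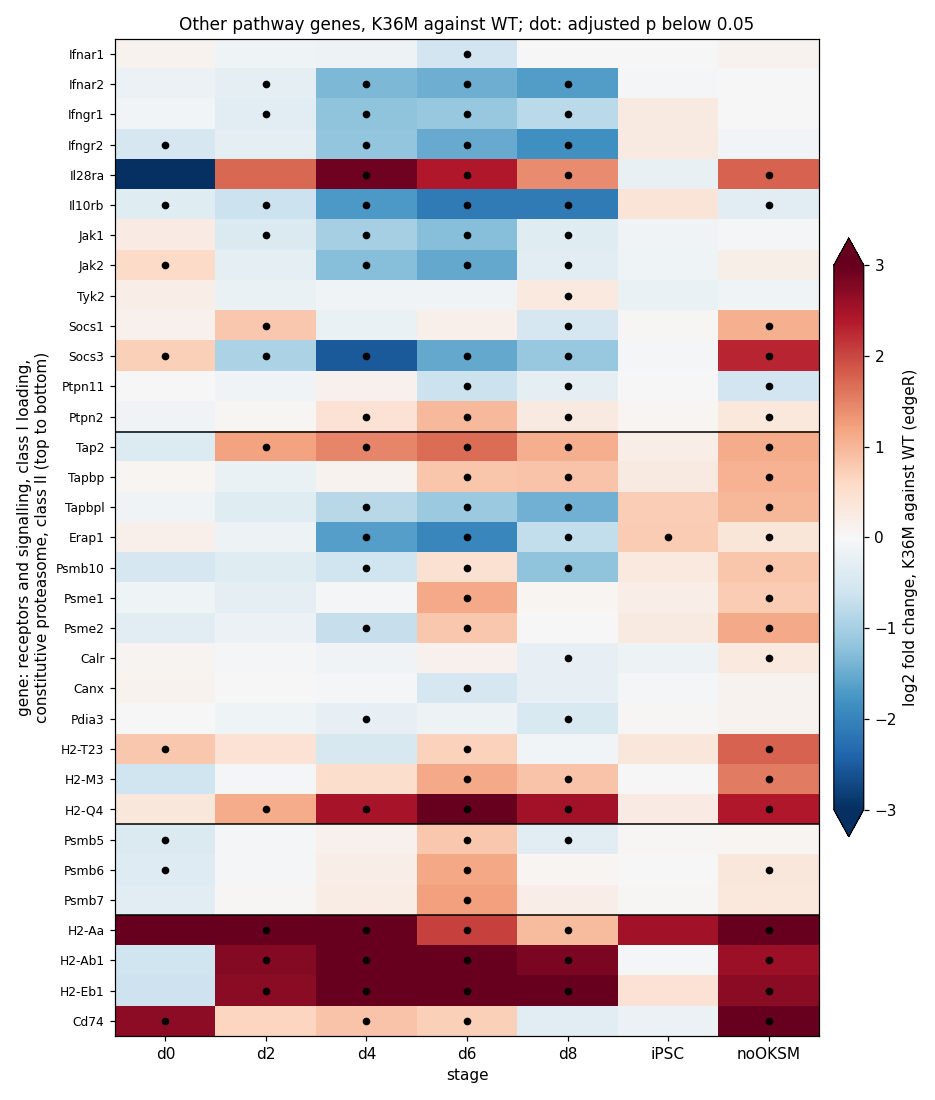
Heat map of the log2 fold change of K36M against WT (colour, red higher in K36M, blue lower; values beyond 3 take the end colour) for genes of receptors and signalling, class I loading, the constitutive proteasome and class II (rows, top to bottom) at each stage, with a dot where the adjusted p was below 0.05. Receptor genes such as Ifnar2 and Il10rb are blue from d4 to d8, while H2-Q4 and the class II genes H2-Ab1 and H2-Eb1 are red from d2 to d8.

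The K36M differences were also read by promoter. Of the 16 tested genes with an ISRE core in a window, 10 were higher and 3 lower in K36M at d8, against 8 and 3 of 17 genes without one (31.6% and 29% of all genes). In noOKSM the counts were 7 and 1 of 16 with a core and 13 and 1 of 17 without (18.2% and 16.7% of all genes). At d0, 0 of 16 genes with a core and 5 of 17 without were higher, and 1 and 0 lower (7.6% and 8.31% of all genes). In iPSCs, 4 of 16 and 0 of 17 were higher (0.756% of all genes), and the iPSC calls fell to 0 without WT replicate 1. Genes with a core thus made up all 4 of the calls in iPSCs and 7 of the 20 higher calls in noOKSM among genes with a window. These shares were not tested.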

How the data were processed

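Poly(A) RNA of 28 mouse libraries was sequenced, 2 in each of 14 groups. The authors deposited raw counts per gene in 1 table, as whole numbers with library totals from 17507521 to 35622279, and no column was left unused (0). The aligner STAR 2.5.0, the read counter HTSeq 0.11.2, edgeR and the mm9 build are named in the submitters' processing notes. Which annotation and strand setting were used, and how reads with several matches were treated, is not given in the sources used here. The library kit (NEBNext Ultra Directional) marks strand, per the labels' protocols.

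The genes and lists were chosen with earlier results of these data known. Counts were scaled by TMM and filtered with filterByExpr (minimum count 10, minimum total 15), and edgeR 4.0.16 in R 4.3.3 fitted a robust quasi-likelihood model to all 14 groups (16932 genes, 14 residual degrees of freedom). The difference shared over d2 to d8 came from 16 libraries with day as a covariate (15954 genes, 11 residual degrees of freedom). P-values were two-sided and adjusted over all genes of a contrast by Benjamini-Hochberg, and a standard error is the log2 fold change divided by the square root of F. The script was tested on simulated counts. A set of 20 genes fixed by name is given in every library. Beside it, each K36M against WT comparison names the 3 largest rises and 3 largest falls among called genes with a mean of at least 1 CPM, and of each other pathway list up to 3 genes with the largest change. RPKM uses exon lengths of GENCODE vM1 (mm9), whose coordinates are given counting from 1. Promoter sequences are from RefSeq (GRCm38.p6). Values of some genes of the fixed lists are not reported here. Alternatives were DESeq2 1.42.0, RLE size factors, no filter, a minimum count of 50, a replicate block, fits of the 2 groups alone and leaving out each library.

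Replicate numbers did not pair the samples. Correlations of same-numbered WT and K36M libraries, as deviations from group means, ran from -0.0569 at d0 to 0.131 in noOKSM. Precision is limited by 2 libraries a group, and counting error dominates for genes under about 1 CPM.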

Additional observations from a re-analysis of the deposited data

Results flagged for a closer look

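The K36M difference was not the same in MEFs without the factors and in d0 MEFs for 18 genes, by a test of the difference itself (edgeR, adjusted p below 0.05 over all genes). Of all genes tested, 12.8% had a larger difference at noOKSM and 12.2% a smaller one. It was larger at noOKSM, as log2 values, for Oas1a by 3.31, Oasl2 by 2.67, Psmb8 by 2.53, Rtp4 by 2.29, Bst2 by 2.17, Xaf1 by 1.83, Gbp2 by 1.59, Isg15 by 1.57, H2-K1 by 1.44 and Ifitm3 by 1.39. Smaller excesses were found for Tap1 (1.07), Lgals3bp (1.05), Irf1 (0.84), Parp9 (0.79), H2-D1 (0.61), Ddx58 (0.55) and Irf9 (0.51). For Ifit2 the difference went the other way (-1.31). The d0 and noOKSM libraries belong to different series of library numbers. The part of that series in these differences was not tested. Leaving out 1 of the 8 libraries gave between 12 and 18 calls in all, which need not be the same genes.

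The K36M differences at d2, d4, d6, d8 and iPSC departed jointly from that at d0 for 33 of 41 genes (edgeR, test on 5 coefficients). That share is near the 75.8% of all genes, so the count does not set these genes apart. Between 31 and 36 of the 41 did so when 1 library was left out.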

How the results depend on the processing

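Of 177 calls over the 7 stages, the shared d2 to d8 difference and the noOKSM against d0 difference, 122 passed the test under every alternative that could be run, 55 were lost under at least 1 and 0 reversed sign. Counts of genes called that moved by more than 1.5 times were these. At d6, a fit of the 2 groups alone called 19 in place of 30. In iPSCs the main count of 4 became 14 with no filter on low counts and 22 in a fit of the iPSC groups alone, and WT noOKSM against WT d0 went from 6 to 14 and 11 in the same order. Leaving out 1 library gave 2 to 6 calls at d0, 9 to 12 at d2, 0 to 11 in iPSCs and 2 to 7 for WT noOKSM against WT d0. Every other count stayed within 1.5 times of its main value under DESeq2, RLE size factors, no filter, a minimum count of 50, fits of 2 groups and single libraries left out. Same-numbered libraries shared only a number (correlations -0.0569 to 0.131). With the replicate block the counts for d0, d2, d4, d6, d8, iPSC and noOKSM were 6, 16, 21, 30, 30, 4 and 27, and 25 for the shared difference. Fits of 2 groups alone do not apply to the shared, joint and difference contrasts. At low levels depth limits what can be seen: Mx1 and the 10 listed interferon genes could not be tested. Psmb9 could not be tested either, but its 2 records overlap each other, so its low count may not reflect its level. Causes of the moves were not tested, except that fewer libraries leave fewer degrees of freedom.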

Other observations

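Other members of the same gene families were listed with the 43 genes but not described above. Of 15 tested, 9 were higher and 4 lower in K36M at d8 (31.6% and 29% of all genes), and 9 and 3 at d6 (37.3% and 33.7%). Oas3, another oligoadenylate synthetase gene, read 0.124 and 0.322 CPM in WT d8 and 3.74 and 3.53 in K36M d8 (log2 fold change 3.88, SE 0.45, adjusted p = 1.02e-07), and 9.72 and 8.61 and 8.10 and 7.48 in the WT and K36M iPSCs. Irf8, a factor of myeloid cells, stood at 14.7 and 12.8 CPM in WT iPSCs and 6.23 and 6.17 in K36M iPSCs, the reverse of the lean of the 43 genes there (log2 fold change -1.15, SE 0.22, adjusted p = 0.00703). Il28ra, a subunit of the type III interferon receptor, was at 0.318 and 0.444 CPM in WT d4 and 3.59 and 2.44 in K36M d4 (log2 fold change 2.91, SE 0.42, adjusted p = 4.11e-06), while the type I subunit Ifnar2 was lower in K36M at that day (33.5 and 33.9 against 13.0 and 13.3, log2 fold change -1.36, SE 0.10, adjusted p = 8.53e-11). Cd74, the class II invariant chain, was at 0.105 and 0.0807 in WT noOKSM and 3.39 and 2.75 in K36M noOKSM (log2 fold change 4.95, SE 0.50, adjusted p = 4.84e-08).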
